A study of Drosophila melanogaster with 7 samples.

Results

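The SWI/SNF complex of Drosophila, also called the Brahma or BAP complex, was described here through 10 subunit genes: brm, mor, Snr1, Bap55, Bap60, Bap111, osa, Bap170, polybromo and Bicra. They were taken by their FlyBase symbols from a table of 17753 genes. The genes were chosen by symbol, with their CPM in these same 7 libraries already known and Bicra selected on its high level there, so the levels that follow are a description and carry no test between genes. RNA came from 7 libraries of primary neuron cultures of a single condition. Per the methods these were w1118 control cells from the dissociated central nervous systems of third-instar larvae, grown on a coated substrate for 7 days in vitro, with 3 nervous systems pooled per sample. w1118 is a laboratory strain with white eyes that carries no other stated change, and the cultures received no treatment. Such cultures hold neurons together with other cells of the larval nervous system, and dissociation removes their normal connections.

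SWI/SNF complexes use the energy of ATP to slide or evict nucleosomes, and so open promoters and enhancers to other factors. In flies a single ATPase, Brahma, works in alternative assemblies that share a core and differ in signature subunits. BAP holds Osa, PBAP holds Bap170 and Polybromo, and another assembly holds Bicra, the fly relative of mammalian BICRA (GLTSCR1) of the non-canonical BAF complex. In the fly nervous system these complexes are known for roles in neural stem cell fate and in the remodelling of dendrites and axons. The study listed Bicra among mRNAs bound by the RNA-binding protein Pumilio in fly heads. Binding was not measured in these libraries.

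Libraries are named A to G by rising total count, which ran from 21178515 in A to 33891136 in G. The study describes its control cultures as 7 biological replicates, and the columns name the condition but not the numbered culture. Levels are counts scaled by the library total (CPM), given as mean ± SD over the 7 libraries. Of all genes, 9476 had at least 10 counts in every library and are called detected. Markers of neurons were high in all 7 libraries (summed 5699 to 7377 CPM over 7 genes), and the highest, futsch, had 4191 ± 517 CPM. Markers of glia, all 6 of them detected, summed to 122 to 186 CPM, so the cultures were not neurons alone. Those of neuroblasts and dividing cells summed to 257 to 359 CPM. Of that sum PCNA alone had 199 ± 24.1 CPM, and the median of the 9 genes was 11.3 CPM. Library D stood apart: photoreceptor markers summed to 1456 CPM there and to 198 to 449 CPM in the other 6, and yolk protein genes to 742 CPM there against 24.6 to 239 CPM. Muscle, hemocyte and fat body markers were also highest in D, at 108, 66.7 and 17.6 CPM. Of the 6 fat body genes only Lsp1beta was detected, at 15.4 CPM in D. The others were highest in B or E, so that sum rested on a single gene. Between any 2 libraries the counts differed by more than sampling noise (chi-square per degree of freedom 18.7 to 74.1 over 21 pairs), so none was a copy of another. In RNA from whole cultures, fewer cells of a type and less RNA per cell cannot be told apart.

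All 10 subunit genes were detected, with lowest counts per library from 587 for Snr1 to 14911 for Bicra. Before any correction for length the levels spanned 28.4 CPM for Snr1 to 712 CPM for Bicra. The sum of the 10 genes was 1934 CPM in G, the lowest, and 2172 CPM in F, the highest.

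Among the core subunits, brm encodes the ATPase. It lies on 3L at 15970082-15982869 on the minus strand (BDGP6.54, the dm6 assembly), with 6 annotated transcripts. Its level was 190, 169, 168, 171, 172, 161 and 168 CPM in libraries A to G. A was highest and stood clear of the other 6, which lay within 161 to 172 CPM. The mean was 171 ± 9.06 CPM.

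mor encodes Moira, the scaffold on which the core is built and the relative of mammalian BAF155 and BAF170. It lies on 3R at 15968134-15972913 on the minus strand. Its lowest, median and highest levels were 150, 163 and 167 CPM. The values lay close together, with G lowest, and the mean was 162 ± 6.02 CPM. Exons of mor overlap those of Rbf2, an antisense gene at 6.67 CPM, by 5 bases or 0.126% of mor exon length, and no other subunit gene shares exon bases with a neighbour.

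Snr1, the SNF5 (SMARCB1) relative that contacts the nucleosome, is a short gene on 3R at 5470926-5472754 on the plus strand. It had 26.1, 28.0 and 32.1 CPM as its lowest, median and highest values. F was highest and G lowest, with a mean of 28.4 ± 1.87 CPM. Bap55, an actin-related protein, lies on 2R at 17429353-17430963 on the minus strand. Its values were 51.8, 39.9, 43.7, 42.8, 44.6, 40.2 and 38.2 CPM in A to G. As for brm, A was the highest library, and the mean was 43.0 ± 4.48 CPM.

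Bap60, the relative of mammalian BAF60 that links the complex to transcription factors, and Bap111, an HMG-domain protein related to BAF57, are both on the X chromosome. Bap60 (13157445-13159508, minus strand) had 85.1, 90.6 and 99.1 CPM as its lowest, median and highest values and a mean of 91.0 ± 5.56 CPM. D was its highest library and E its lowest. Bap111 (9149309-9151976, plus strand) had 101, 109 and 110 CPM, with a mean of 107 ± 3.96 CPM. Libraries A to E lay together for Bap111, and F and G were both lower.

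Among the signature subunits, osa encodes the ARID protein that defines BAP. It lies on 3R at 17687818-17718350 on the minus strand. Its values were 422, 419, 448, 441, 418, 489 and 435 CPM in A to G. F was highest and the other 6 lay within 418 to 448 CPM, with a mean of 439 ± 25.0 CPM. 

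Bap170, the ARID2 relative of PBAP, lies on 2R at 6636512-6642358 on the plus strand. It had 134, 157 and 162 CPM as its lowest, median and highest values. E, F and G were the 3 lowest libraries, and the mean was 152 ± 10.2 CPM. Polybromo, the PBAP subunit with a row of bromodomains that bind acetylated histones, lies on 3R at 24799967-24805259 on the minus strand. Its values were 127, 121, 104, 107, 128, 110 and 103 CPM in A to G. A, B and E were high and C, D, F and G low, with a mean of 114 ± 10.996 CPM.

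Bicra lies on 3R at 29063040-29108948 on the plus strand. Its values were 704, 688, 771, 613, 682, 834 and 692 CPM in A to G. F and C were the highest libraries, and D, the library with the most photoreceptor and yolk protein RNA, was the lowest. The mean was 712 ± 70.9 CPM with all 7 libraries and 728 CPM without D. The part of other cell types in the value of D was not tested.

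**Figure D1:**
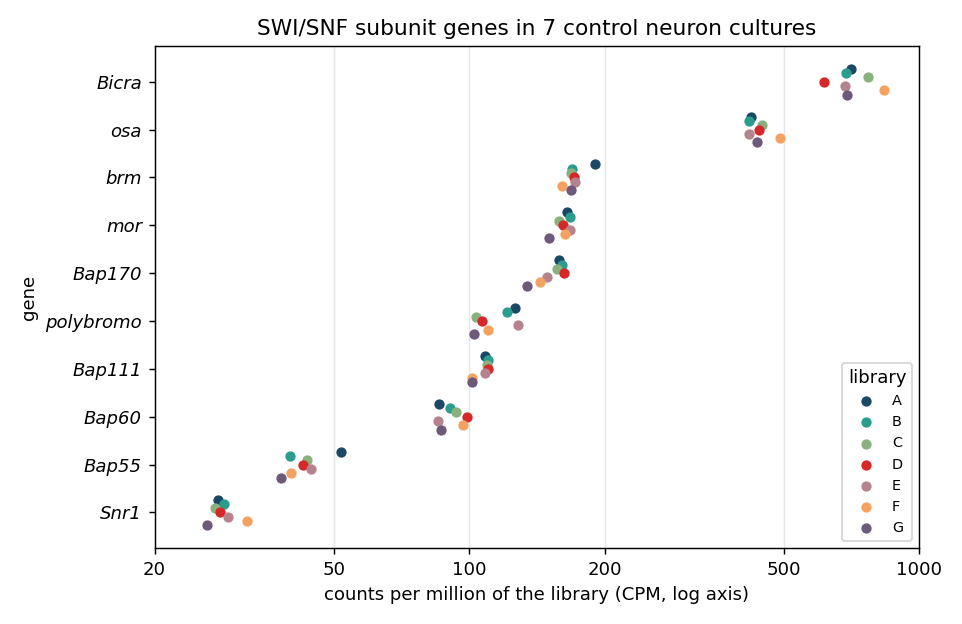
Level of each subunit gene in each of the 7 libraries (CPM on a log axis, 1 point per library, colours A to G). Bicra lies between 613 and 834 CPM and Snr1 between 26.1 and 32.1 CPM, and library A stands out for brm (190 CPM) and Bap55 (51.8 CPM).

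A long gene collects more counts per mRNA than a short one, so levels between genes were compared as CPM per kb of exon, over all annotated exon bases of the gene. These run from 1335 bases in Snr1 to 12599 in Bicra. Per kb the 10 genes fell within a range of 21.3 to 56.5, a far narrower span than in CPM. Bicra was at the top with 56.5 ± 5.63 CPM per kb, followed by Bap60 (47.0 ± 2.87), osa (40.9 ± 2.33), mor (40.6 ± 1.51) and Bap111 (40.1 ± 1.48). The lower group was brm (30.6 ± 1.62), Bap55 (29.2 ± 3.04), Bap170 (28.6 ± 1.92), polybromo (22.3 ± 2.15) and Snr1 (21.3 ± 1.40). The median of the 10 was 35.4 CPM per kb, against 12.5 CPM per kb over the 9403 detected genes with an exon length. From 66.5% (Snr1) to 89.2% (Bicra) of those genes had a lower level per kb.

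Not every step in this order was larger than the spread. Bap111 lay above brm and Bap170 above polybromo in 7 of 7 libraries, and the values of neither pair overlapped. Bap60 was above osa in 7 of 7 libraries and Bicra above Bap60 in 6 of 7, although the ranges overlapped. In D the pair Bicra and Bap60 was turned round, and Bap60 led. Between osa and mor (above in 4 of 7), mor and Bap111 (4 of 7), brm and Bap55 (6 of 7), Bap55 and Bap170 (5 of 7) and polybromo and Snr1 (4 of 7), the mean difference was no larger than the SDs. These neighbours were not told apart.

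The order was the same with the length of the longest annotated transcript in place of all exon bases. Both lengths assume that the annotated exons are in the mRNA, so a gene read mainly as a short isoform would be understated. Only Bicra and brm have more than 1 annotated length of 3′ UTR. Bicra has 4 annotated transcripts with 3 lengths of 3′ UTR, from 119 to 2246 bases. osa has 6 transcripts with 1 length of 2000 bases. The other 8 genes have longest 3′ UTRs of 67 to 304 bases, each under the median of 328 bases over 8745 detected protein-coding genes. Of those 8745 genes, 62.2% have 1 annotated length, as do 8 of the 10 subunit genes. The lengths of brm are 235 and 295 bases. Counts per gene do not show which end was used.

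**Figure D2:**
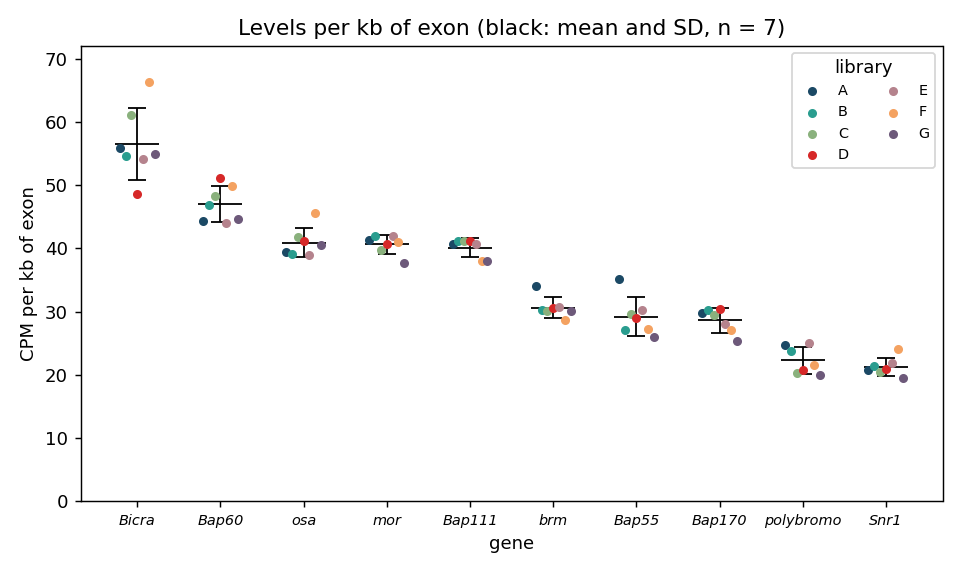
CPM per kb of exon for each gene by falling mean (points: 7 libraries, black: mean and SD). Bicra is highest at 56.5, the ranges of Bap111 (mean 40.1) and brm (mean 30.6) do not overlap, and Bap60 is above Bicra in library D alone.

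Ratios to brm, taken within each library, set each subunit against the ATPase that all assemblies share. On the log2 scale per kb, Bicra was 0.88 ± 0.18 above brm (SD, n = 7), a mean of 1.84-fold. The ratio was lowest in D (0.67) and highest in F (1.21), and above 0 in every library. Bap60 was 0.62 ± 0.14, osa 0.42 ± 0.14, mor 0.41 ± 0.08 and Bap111 0.39 ± 0.07 above brm, also with no library below 0. Bap55 (-0.07 ± 0.09) was at the level of brm within its spread, and Bap170 (-0.10 ± 0.10) was below brm in 6 of 7 libraries by a mean about as large as its SD. Polybromo (-0.46 ± 0.11) and Snr1 (-0.53 ± 0.14) were below brm in every library.

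Within the signature genes, osa of BAP exceeded Bap170 of PBAP by 0.52 ± 0.14 and polybromo by 0.88 ± 0.19 (log2 difference per kb). Bap170 in turn exceeded polybromo, its partner in PBAP, by 0.36 ± 0.14, with a range of 0.16 in E to 0.55 in D. Bicra exceeded osa by 0.46 ± 0.10, from 0.24 in D to 0.55 in C. Each of these 4 ratios kept its sign in all 7 libraries. They are ratios of mRNA, and neither protein nor assembled complex was measured.

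The genes listed as further subunits of the fly complexes were detected as well, 6 of 6. CG10555 was listed as a candidate only, and membership in a complex was not tested for any of them. e(y)3, the PHF10 relative of PBAP, had 323 ± 23.1 CPM, and d4, a relative of the mammalian DPF proteins, had 94.7 ± 11.8 CPM. Per kb of exon these were 35.2 ± 2.53 and 39.3 ± 4.90, within the range of the 10 genes. Brd7-9, the bromodomain protein related to mammalian BRD7 and BRD9, was at 19.7 ± 2.12 CPM per kb. Bicra exceeded it by 1.52 ± 0.26 on the log2 scale per kb, from 1.10 in D to 1.79 in F. tth, a gene related to d4, was at 19.5 ± 2.42, CG10555 at 17.4 ± 1.25 and BCL7-like, a relative of the mammalian BCL7 proteins, at 14.9 ± 2.17 CPM per kb. Bap170 was below e(y)3, a further PBAP subunit, by a steady margin (-0.30 ± 0.05 on the log2 scale per kb).

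The place of brm among the genes of chromatin remodelling ATPases was in the middle. With brm, 11 such genes were matched in the table and all were detected, and brm, at 30.6 CPM per kb, was their median. Ino80, also on the list, was not matched and is not analysed here. Highest were kis, a CHD-family ATPase of the Trithorax group (100 ± 9.80), Hel89B, the Mot1 relative (75.3 ± 5.87), and Mi-2 of the NuRD complex (49.8 ± 2.59 CPM per kb). Lowest were Chd1 (12.7 ± 1.05), Marcal1 (3.42 ± 0.258) and Chd3 (2.11 ± 0.710). Bicra, which has no ATPase of its own, was at 0.56 of the level of kis per kb.

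**Figure D3:**
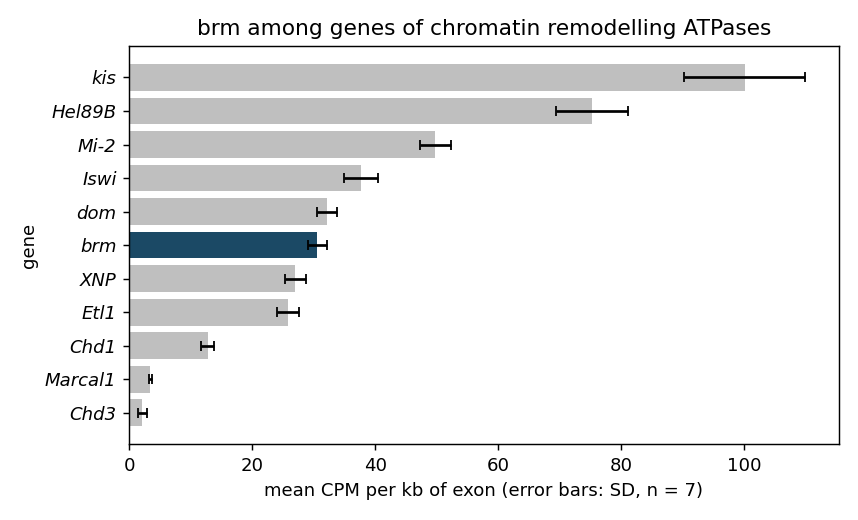
Mean CPM per kb of exon of brm (dark) and 10 other remodeller ATPase genes (grey), with SD over 7 libraries. brm, at 30.6, is in the middle of a range from 2.11 (Chd3) to 100 (kis).

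brm, mor and osa belong to the Trithorax group, which keeps developmental genes active, and are opposed by Polycomb genes. All 20 other Polycomb and Trithorax genes on the list were detected, with a median of 19.6 CPM per kb. The median of the 10 subunit genes was 35.4. The highest of the 20 were trx, the histone methyltransferase that names the group (54.2 ± 4.02), pho, a DNA-binding Polycomb protein (42.6 ± 2.72), and fs(1)h, the BET bromodomain protein (30.8 ± 1.86). ph-d (11.4 ± 1.23), escl (4.14 ± 0.916) and esc (4.03 ± 1.62) were lowest. All 11 genes listed for a link to the complex or its roles in nervous tissue were detected. Mical, which acts in the pruning of neurites (59.3 ± 3.88), pros, a factor of neuronal differentiation (51.9 ± 12.4), and E(Pc) (36.1 ± 2.09) were highest per kb, and erm (5.31 ± 1.27), ham (2.18 ± 0.555) and opa (1.502 ± 0.565), which encode transcription factors of neural progenitors, were lowest. 

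The subunit genes varied little between cultures. Their coefficient of variation of CPM (CV, the SD as a percent of the mean) ran from 3.70% for Bap111 and 3.72% for mor to 9.96% for Bicra and 10.4% for Bap55. The median was 6.35%, against 14.1% over all detected genes. The 10 genes are also expressed above most others, and high counts lower the CV. Compared only with detected genes within 0.5 log2 units of the same level, mor had a lower CV than all but 4.14% of 918 genes, Bap111 than all but 2.94% of 1191 and Snr1 than all but 4.65% of 1375. For Bap60, brm and osa that share was 13.8%, 14.2% and 15.7%. Bap170 (32.3%) and Bap55 (43.4%) were nearer the middle. Polybromo and Bicra varied more than most genes of their level, with 62.4% of 1161 and 66.5% of 185 genes below them. For each of the 10 genes the CV was above what counting alone would give, by a wide margin for Bicra (counting 0.719%) and less so for mor (1.51%), Bap111 (1.86%) and Snr1 (3.60%).

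**Figure D4:**
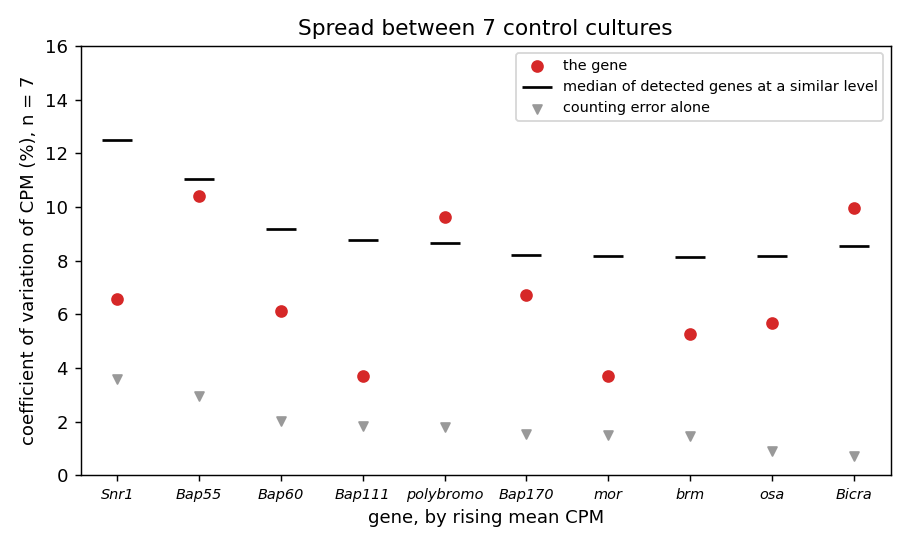
CV of CPM over 7 libraries for each gene (red), the median CV of detected genes within 0.5 log2 units of its level (black bar) and the CV of counting error alone (grey). Bicra (9.96%) and polybromo (9.63%) lie above the median of their level and the other 8 genes below it.

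For some genes a single library set much of this spread. Each library left out below was the highest or lowest of its gene, and leaving that out lowers a CV by construction. Without A the CV of brm was 2.38% instead of 5.28% and that of Bap55 5.98% instead of 10.4%. Without F the CV of osa was 2.92% instead of 5.69% and that of Snr1 3.75% instead of 6.59%, close to its counting error. Without G the CV of mor was 2.05% instead of 3.72%. The biological coefficient of variation (BCV) of edgeR is a spread beyond counting error, with each gene drawn towards genes of its level. It was 0.0849 for mor to 0.119 for Snr1. For mor this exceeded its whole CV of 3.72%, so the BCV is not the spread of that gene alone. Without that draw (DESeq2 gene-wise dispersion) it was 0.0226 for mor. The trend of edgeR at the level of the gene was 0.114 for mor and 0.153 for Snr1, and for Bicra BCV and trend were both 0.106. The share of all detected genes under the trend was not computed, so no count of subunit genes under it is read.

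By Dixon's rule a library was called apart when its gap to the nearest of the others, as a share of the whole range, passed the critical value for 7 values. In CPM this held for 6.72% of all detected genes (637 of 9476) and for 2 of the 10 subunit genes, brm in A and osa in F. It depended on the scaling: with TMM or DESeq2 size factors neither gene passed and Snr1, highest in F, did.

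Library G had no subunit gene above its own mean, and 6 of the 10 (mor, Snr1, Bap55, Bap111, Bap170 and polybromo) were lowest there, with a median deviation of -0.09 on the log2 scale. Arc1, a single gene for a capsid-forming synaptic RNA carrier, held 15.0% of all counts in G and 11.5% in A, and its part in these values was measured by leaving it out of the totals. Then 4 of the 10 genes were still lowest in G, with a median deviation of -0.07. With TMM 3 of the 10 were lowest in G and 3 in A, and the median deviation in G was -0.04. By library total, low values in G were not limited to subunit genes. Among genes of at least 10 CPM, the median deviation in G was -0.08 for 2270 genes under 2000 exon bases. It was -0.05 for 3644 genes of intermediate length, but 0.02 for 453 genes of at least 8000 bases. The share of all detected genes lowest in G was not computed, so no excess among subunit genes is read. A and F differed from the rest gene by gene: brm and Bap55 were highest in A, and Snr1, osa and Bicra were highest in F, where brm was lowest.

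Whether subunit genes moved together over the 7 libraries was asked by Pearson's r of log2(CPM + 1) with Bicra and with brm, tested two-sided by exact permutation over every pairing and adjusted by the Benjamini-Hochberg method over all 9475 other detected genes. For Bicra 0 genes passed an adjusted p of 0.05 (0%). The smallest adjusted p was 0.376, and 486 genes (5.13%) had an unadjusted p under 0.05. With 7 libraries p cannot go below 0.000198, and 38 genes would have to reach it for any to pass, so this test could have passed only a pattern shared by many genes. None of the other 9 subunit genes had an unadjusted p under 0.05 with Bicra.

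The nearest to Bicra among them was osa (r = 0.688, exact p = 0.0921, adjusted p over all genes 1.00, rho = 0.607, exact p = 0.167). Both were highest in F and next highest in C. Leaving out 1 library moved r between 0.139 (without F) and 0.956 (without D, exact p = 0.00972), and r was 0.852 without D and F, the libraries farthest from the median of Bicra. Without D, r with Bap60 was 0.890 (exact p = 0.0181), against 0.114 with all 7 libraries. Without A, r with brm was -0.859 (exact p = 0.0306), against -0.397 with all 7. An unadjusted p under 0.05 with Bicra held for 5.02% of all 9475 genes without D and for 5.27% without A. Among the 9 subunit genes it held for 2 without D, 1 without A and 0 without any other library. No p adjusted over all genes passed in these fits either. With each library left out in turn, r with Bicra ran from -0.732 to -0.0377 for Bap111 and from -0.684 to -0.0958 for Bap170.

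For brm 0 genes passed an adjusted p of 0.05 (0%). The smallest adjusted p was 0.501, and 693 genes (7.31%) had an unadjusted p under 0.05. Bap55 was the only one of 9 subunit genes among those 693 (r = 0.861, exact p = 0.0317, adjusted p = 0.660, rho = 0.607, exact p = 0.167). This rested on A, where both were highest: r was 0.447 without A and 0.542 without A and F. Scaling by TMM took the pair to r = 0.692 (exact p = 0.105) and brought Bap60 to r = -0.825 (exact p = 0.0127), against -0.530 by library total. With that scaling 395 genes (4.17%) had an unadjusted p under 0.05, among them 1 of the 9 subunit genes. Under TMM the sign of r with brm turned for mor (0.229 by library total, -0.368 by TMM), Bap111 (0.440 and -0.05) and Bap170 (0.385 and -0.07), so no direction is read for these.

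**Figure D5:**
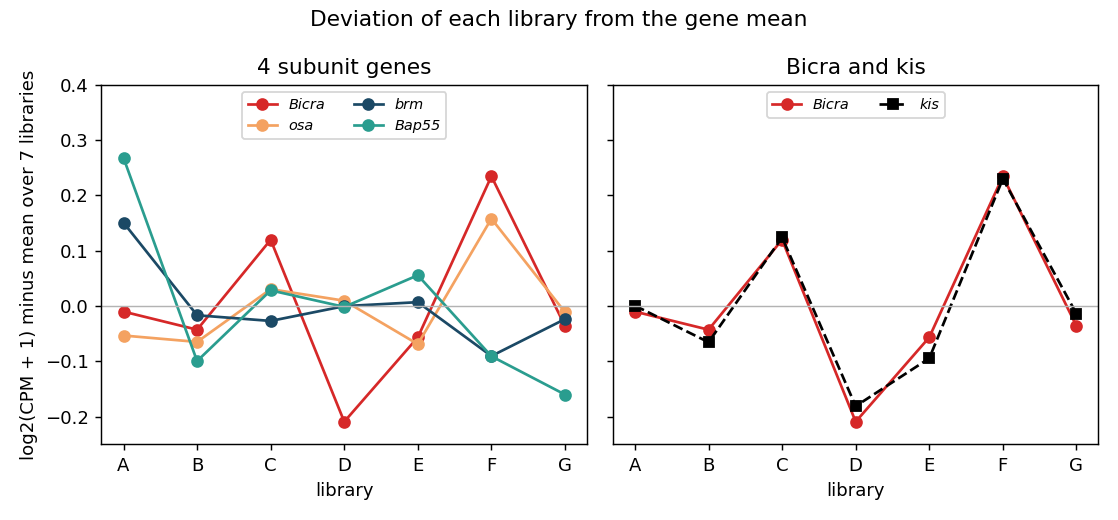
log2(CPM + 1) of each library minus the gene's mean over 7 libraries. On the left brm and Bap55 peak in A and Bicra and osa in F, and on the right kis follows Bicra from D, the lowest library of both, to F, the highest of both.

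The genes whose levels were most like Bicra, ranked by r among 6420 detected genes with a mean of at least 10 CPM, were kis (r = 0.986), aus (0.971), tou (0.968), wde (0.955) and spen (0.955). kis was picked here as the highest r of all, so its values are a description of that choice. It had 1925 ± 188 CPM, ordered the 7 libraries just as Bicra did (rho = 1), and the log2 ratio of Bicra to kis per kb was -0.83 ± 0.02 (SD, n = 7), from -0.85 in D to -0.79 in E. Its exact p was 0.000198, the smallest possible, which some of 9475 genes would reach by chance, and its adjusted p was 0.376. Computed again, r was 0.984 without D and 0.962 without D and F.

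Of the other 4 genes, tou encodes a relative of the ACF1 family of remodeller subunits, wde a cofactor of the histone methyltransferase Eggless, and spen a nuclear RNA-binding repressor. All 5 were lowest in D and 4 of the 5 highest in F, the exception being wde, highest in C. The lowest r belonged to CG1648 (-0.989), CG12320 (-0.960), mfrn (-0.955), Rheb (-0.953) and Mpcp2 (-0.949). mfrn and Mpcp2 encode carriers of the mitochondrial inner membrane and Rheb a small GTPase of the TOR pathway. All 5 were highest in D and lowest in F. None of the 10 had an adjusted p under 0.05.

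Exon length moved with this ranking. The 5 genes most like Bicra had a median of 12968 exon bases, and the 5 least like it a median of 1666. The former ran widely, from 4856 (wde) to 23035 (spen), against 12599 for Bicra itself. Over 6366 genes with a length, r with Bicra and exon length had a Spearman correlation of 0.256, given as a description across genes, which share the libraries and are not independent. The median r was 0.223 for 452 genes of at least 8000 exon bases and -0.150 for 2270 genes under 2000. For brm, with 5597 exon bases, the same medians were -0.0924 and 0.249. The length classes did not follow Bicra in every library. In F the median deviation on the log2 scale was 0.06 for the long genes and -0.05 for the short, and that of Bicra was 0.24. In D, the lowest library of Bicra (-0.21), the medians were -0.00199 and 0.02, and in E they were -0.09 and 0.07 with Bicra at -0.06. The part of exon length in these likenesses was not tested.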

How the data were processed

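RNA of 7 control primary neuron cultures was analysed. The authors deposited counts of reads per gene as whole numbers, made with featureCounts as the table is named, without normalization or pooling. The submitters' processing notes name dm6. For the aligner, strand setting and annotation, no source used here gives a name, so antisense or overlapping genes may share counts. Per the labels, total RNA was depleted of ribosomal RNA, whereas the methods name a stranded mRNA kit. Another 8 columns of per-sample values match no sample used here and were not used.

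CPM were computed from the deposited counts and the library totals (21178515 to 33891136). A CPM of 0.295 (G) to 0.472 (A) stands for 10 counts, the minimum in every library for a detected gene, and log2 values carry a pseudocount of 1 CPM. Coordinates and lengths came from Ensembl BDGP6.54, which matched 17626 of 17753 identifiers. No sequence was used. Exon overlaps were found with bedtools 2.31.1. BCV came from edgeR 4.0.16 (TMM, tagwise dispersion, intercept only) in R 4.3.3. Correlations were tested by exact permutation in Python 3.11.15 with numpy 2.4.6, pandas 2.3.3 and scipy 1.17.1, after a check on simulated counts. Those counts held many genes made to follow Bicra closely, so the check does not show what the test could pass in these data. DESeq2 1.42.0 gave an alternative scaling and dispersion.

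The samples used hold 1 condition, so no comparison between groups was made. The subunit genes and all lists were chosen with earlier results of these data known. Named genes are the 10 subunits, the further subunits, the highest and lowest 3 per kb of each other list, the 5 highest and 5 lowest r with Bicra among detected genes of at least 10 CPM, genes whose exons overlap a subunit gene, and the highest of a marker list. Arc1, for its share of counts, was named beyond this rule. Alternatives were TMM and DESeq2 size factors, totals without Arc1, transcript length, a pseudocount of 0.1 CPM, 2 looser filters, Spearman's rho and each library left out.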

Additional observations from a re-analysis of the deposited data

Results flagged for a closer look

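In 7 of the 24 measures examined (10 subunit genes, 6 further subunits and 8 marker lists), 1 library stood apart from the other 6 by Dixon's rule. Chance alone gives this in about 1 of 20 groups, and it held for 6.72% of all detected genes (637 of 9476). The 7 were 2 of the 10 subunit genes, 0 of the 6 further subunits and 5 of the 8 marker lists. All 5 lists stood apart in the same library, D, so they are not independent and the 7 of 24 is not read as an excess. brm was at 190 CPM in library A and at 161 to 172 CPM in the others. osa was at 489 CPM in F and at 418 to 448 CPM in the others. Both lost this with TMM or DESeq2 size factors, and brm also with totals without Arc1. In D the summed markers stood apart for photoreceptors (1456 CPM, others 198 to 449), yolk proteins (742 CPM, others 24.6 to 239), muscle (108 CPM, others 13.8 to 33.4), hemocytes (66.7 CPM, others 29.7 to 35.1) and fat body (17.6 CPM, others 3.26 to 9.41).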

How the results depend on the processing

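The mean CPM of the 10 genes moved by less than 1 SD with TMM or DESeq2 size factors and without any 1 library. Totals without Arc1 raised all 10, by construction, as they raised the median detected gene by 0.21 on the log2 scale. Levels per kb and ratios to brm moved by less than 1 SD with transcript length and without any 1 library. The CV stayed within 1.5 times under each scaling, and in 65 of 70 values with a library left out. The exceptions were brm and Bap55 without A, osa and Snr1 without F and mor without G. BCV without the shrinkage of edgeR (DESeq2 gene-wise dispersions) was lower by over 1.5 times for 7 of the 10 genes, down to 0.0152 for Bap111. No gene passed the adjusted threshold with Bicra or brm under any alternative. The number at an unadjusted p under 0.05 with Bicra was 775 of 15796 genes with no filter on low counts, where more genes were tested, and 408 to 557 with a library left out. With brm it was 395 under TMM, 381 under the size factors of DESeq2, and 459 (without F) to 766 (without D) with a library left out, for which the cause was not tested. No paired analysis was possible because all 7 libraries belong to a single group. Depth limits the spread read for Snr1, whose lowest count was 587: its CV of 3.75% without F compares with 3.60% from counting alone. The number of libraries limits the correlations.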
